A study of Mus musculus with 9 samples.

Results

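Myosin-binding proteins and the large repeat proteins of the Z-disc and costamere were described in mouse ventricle as a family of 10 genes, out of 38293 genes in the count table. The family holds Mybpc1, Mybpc2, Mybpc3, Mybph, Mybphl, Igfn1, Cmya5, Xirp1, Xirp2 and Nrap. The genes were taken by symbol and selected on earlier results of these libraries, in which their differences between the genotypes were known, so those differences below describe the members and are not independent evidence. In all, 8 of the 10 members had enough counts to be tested, among 15318 tested genes, and Mybpc1 and Mybph did not.

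The study asked what Arid1a, which helps the SWI/SNF chromatin remodeller bind DNA, does in heart muscle cells after birth. Ventricles were taken at postnatal day 7 from 5 control mice, labelled Arid1a f/f, and 4 knockout mice, labelled aMHC-Cre;Arid1a f/f cKO and called cKO below. The series text calls the controls littermates. Both groups carry the floxed allele on both chromosomes, and only the cKO group carries the Cre transgene, which the cardiac myosin heavy chain promoter drives in cardiomyocytes. Other cells of the ventricle keep Arid1a, no group with Cre alone was analysed here, and pups of both sexes were used. RNA of whole ventricle was sequenced, so fewer cells of a type and less RNA per cell cannot be told apart.

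Myosin-binding protein C lies on the thick filament of the sarcomere and tunes how myosin heads meet actin. Mammals have a slow skeletal (Mybpc1), a fast skeletal (Mybpc2) and a cardiac gene (Mybpc3), of which the cardiac gene is known for inherited cardiomyopathy, and the shorter relatives Mybph and Mybphl. Igfn1 encodes a large immunoglobulin and fibronectin repeat protein known from skeletal muscle. The other members work where sarcomeres are anchored: Cmya5 (myospryn) at the Z-disc and costamere, the actin-binding Xin repeat proteins Xirp1 and Xirp2 at the intercalated disc and Z-disc, and the nebulin relative Nrap at the intercalated disc and in assembling myofibrils.

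Library totals ran from 31011055 to 40073801 counts. Arid1a lay at 128 to 148 CPM, counts scaled to a library total of 1000000, in controls and at 100 to 113 CPM in cKO libraries. The libraries also fell into 2 sets by the level of Rps3a3, a copy of a ribosomal protein gene, chosen after its values were seen. It was at 0.345 to 0.521 CPM in the Rps3a3-low set (controls 1 and 2, cKO 1, 2 and 3) and at 99.7 to 112 CPM in the Rps3a3-high set (controls 3, 4 and 5, cKO 4). The labels name no batch, and the changes of the tested members are also given for each set. Summed cardiomyocyte markers were lower in every cKO library (48600 to 52900 CPM against 55200 to 64000 CPM), and summed fibroblast markers were higher in every cKO library (8560 to 9510 CPM against 6920 to 8210 CPM). By edgeR or by DESeq2 0 of the 8 markers in each of these lists were called, and 4 of each had an unadjusted p under 0.05 in edgeR's fit. The abundant collagens weigh most in the fibroblast sum. In that list Col1a1, Col1a2, Tcf21 and Postn passed edgeR's adjusted p, at 1.43, 1.32, 1.40 and 1.25 of the control level. Col3a1, Dcn, Lum and Pdgfra did not, at 1.10, 0.969, 1.04 and 1.08. Of the cardiomyocyte markers, Myl2 and Pln passed it as lower, at 0.741 and 0.734 of the control level, and the others did not pass. The part of these differences in the members' values was not tested.

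Per kilobase of exon, Mybpc3 was by far the most abundant member in controls, at 960 ± 105 CPM per kb (SD, n = 5), followed by Nrap at 74.3 ± 8.67 and Xirp1 at 49.6 ± 3.50. Cmya5 at 19 ± 1.53 CPM per kb came next, without overlap with Xirp1 above it or Xirp2 below it. Xirp2 at 10.8 ± 2.62 and Mybpc2 at 8.15 ± 2.44 CPM per kb overlapped between control libraries and were not ordered beyond their spread. Mybphl followed at 2.97 ± 1.30 CPM per kb, and Mybpc1 at 0.0432, Mybph at 0.02 and Igfn1 at 0.0132 CPM per kb overlapped with each other near the limit of detection. In cKO libraries Mybpc2 stood at 37.3 ± 4.92 CPM per kb (SD, n = 4), above Xirp2 at 19.3 ± 6.24 and Cmya5 at 7.52 ± 0.751, with no overlap between the 3 genes. Cmya5 was thus above both Xirp2 and Mybpc2 in controls and below both in cKO.

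**Figure D1:**
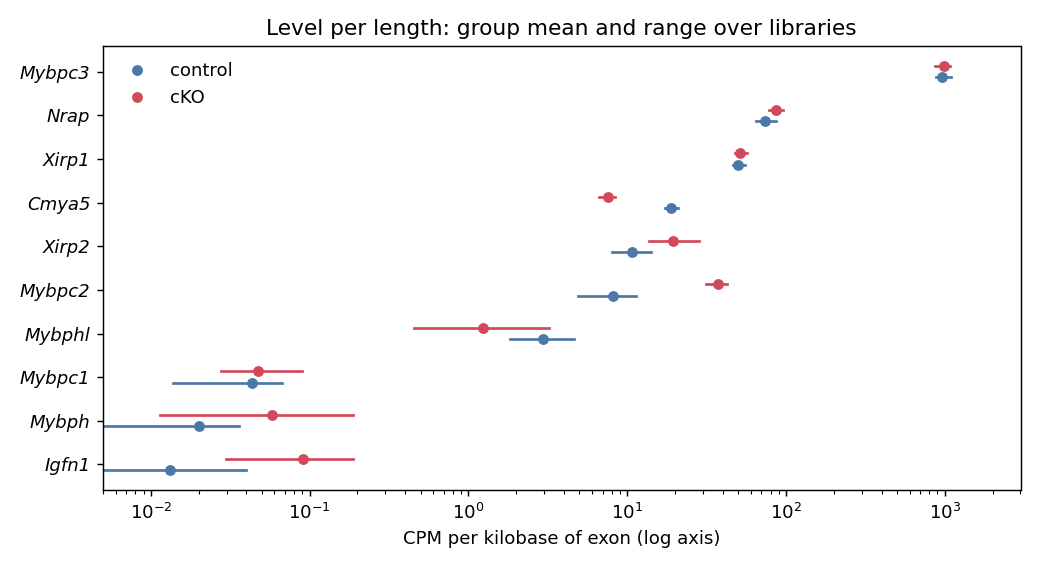
Level of each member per kilobase of exon in CPM, on a log axis, as the group mean (point) and the range over libraries (line) for 5 control and 4 cKO libraries; lines that reach the left edge include a library at 0. Mybpc3 was near 1000 CPM per kb in both groups (960 and 985), and Mybpc2 moved from 8.15 to 37.3 while Cmya5 moved from 19 to 7.52.

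In the fit over all tested genes by edgeR's quasi-likelihood test, 4 of the 8 tested members had an adjusted p under 0.05, and all 4 differed by more than 1.5-fold: Mybpc2, Xirp2 and Igfn1 were higher in cKO and Cmya5 was lower. Among all tested genes 16.3% passed the adjusted p, 4.01% were called higher and 2.72% were called lower. In 2 of the 8 tested members, Mybpc2 and Cmya5, no cKO library overlapped with any control, against 16.7% of all tested genes. The median log2 fold change was 0.13 over the 8 tested members and 0.01 over all tested genes. Igfn1 passed the filter on low counts largely through its cKO libraries. Nothing is read from these counts about the family as a whole, since the members were selected with this comparison known.

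**Figure D2:**
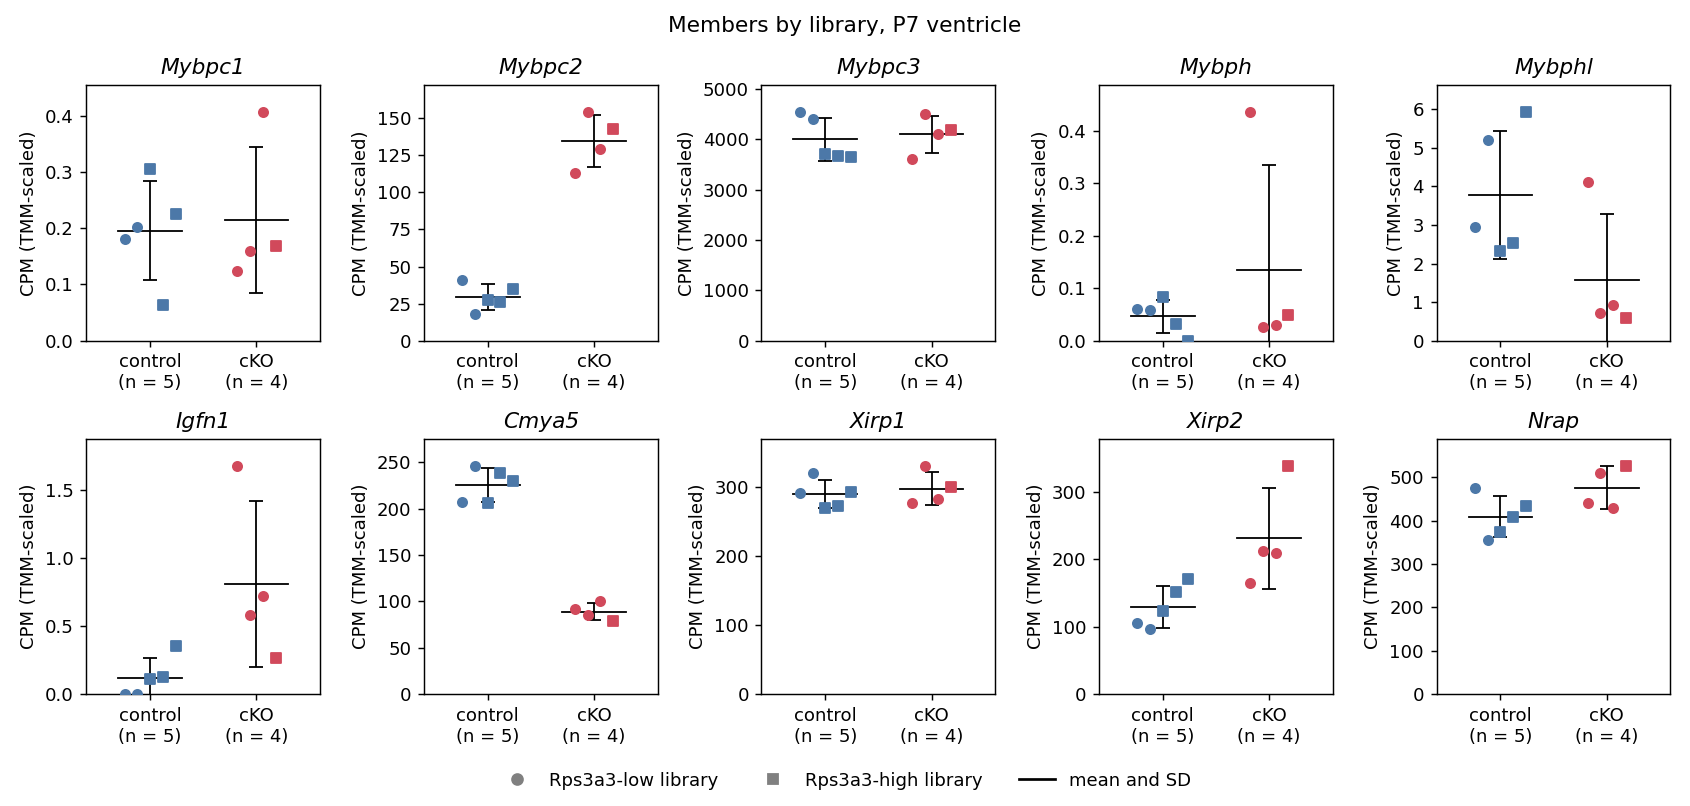
CPM of each member in every library, with the mean and SD of each group (bars end at 0 where the SD would go below it) and the symbol giving the library set. Mybpc2 (17.8 to 40.7 against 113 to 154 CPM) and Cmya5 (206 to 246 against 79.0 to 100 CPM) show no overlap between the genotypes, and the other 8 members do.

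Mybpc2, the fast skeletal form of myosin-binding protein C, was the member with the largest difference at a level well above the detection limit. Control replicates 1 to 5 held 40.7, 17.8, 27.3, 26.1 and 35.2 CPM, and cKO replicates 1 to 4 held 113, 154, 129 and 143 CPM. Every cKO library lay above every control, by a wide margin. The mean was 29.4 ± 8.81 CPM (SD, n = 5) in controls and 135 ± 17.8 CPM (n = 4) in cKO, a log2 fold change of 2.19 (SE 0.21, 95% interval 1.72 to 2.67, edgeR adjusted p = 0.00012), or 4.58-fold. It was 2.17 in the Rps3a3-low libraries and 2.27 in the Rps3a3-high libraries, in a fit that shared the spread. The gene (ENSMUSG00000038670) lies on chromosome 7, 44501699 to 44524656, on the minus strand of GRCm38. With the Rps3a3-low libraries fitted alone, the change was 2.17 and its adjusted p was 0.0667.

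Mybpc3, the cardiac paralog (ENSMUSG00000002100, chromosome 2, 91118144 to 91136516, plus strand), gave no such difference. Its controls held 4540, 4410, 3720, 3680 and 3650 CPM and its cKO libraries 3610, 4510, 4100 and 4180 CPM. Both groups spanned nearly the same range. The log2 fold change was 0.04 (SE 0.09, 95% interval -0.16 to 0.23, edgeR adjusted p = 0.825), and its sign turned with the setting, from -0.14 in the Rps3a3-low libraries to 0.18 in the Rps3a3-high libraries. Mybpc3 held most of the summed level of the 3 paralogs. Mybpc2 was 0.847 ± 0.246% (SD, n = 5) of that sum per kilobase in controls and 3.64 ± 0.173% (n = 4) in cKO, with 0.464 to 1.10% and 3.48 to 3.79% as the ranges.

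Mybpc1, the slow skeletal paralog (ENSMUSG00000020061, chromosome 10, 88518279 to 88605152, minus strand), had 2 to 14 counts in any library and was too low to test. Its mean was 0.195 ± 0.0877 CPM (SD, n = 5) in controls against 0.215 ± 0.129 CPM (n = 4), and the groups overlapped. The 3 genes with the profile most like Mybpc2 over the 9 libraries, by the mean absolute difference of log2 CPM centred on each gene's mean, were Sost at 0.121, Fstl4 at 0.171 and Bex1 at 0.176. Sost, which encodes the secreted Wnt antagonist sclerostin, went from 1.06 to 4.67 CPM, Fstl4 from 7.31 to 35.6 CPM and Bex1 from 16.1 to 74.1 CPM. This measure includes the genotype difference itself. The log2 fold changes of these genes were 2.14, 2.29 and 2.2, beside 2.19 for Mybpc2, so it ranks genes with a like difference.

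Markers of skeletal muscle were read beside Mybpc2, since Mybpc2 and Igfn1 are best known from that tissue. Of 23 such markers, 14 were under 1 CPM in every library, and 2 of these, the myogenic regulators Myod1 and Myf6, were at 0 in every library. Myog, the third regulator listed, was too low to test, at 0 to 0.029 CPM in controls and 0.0726 to 0.156 CPM in cKO, with every cKO library above every control. The adult fast myosins Myh1, Myh2 and Myh4 reached at most 0.579 CPM. The summed level of all 23 markers was 662 to 955 CPM in controls and 586 to 837 CPM in cKO, most of it Tnni1, the slow troponin I of immature heart, at 597 to 889 and 398 to 574 CPM. Of the 10 markers tested, Tnnt1, Casq1 and Myl1 were called higher in cKO and Tnni1 lower, beside 4.01% and 2.72% of all tested genes. In edgeR's fit 9 of the 10 had an unadjusted p under 0.05. Of these, Tnnt1, Casq1, Myl1, Tnni2, Tnnt3, Mylpf and Cacna1s were higher in cKO, and Tnni1 and Myh8 were lower. DESeq2 called 5, the 4 that edgeR called and Tnni2. Tnnt1, the slow skeletal troponin T, was at 21 to 28.4 CPM in controls and 102 to 173 CPM in cKO (log2 fold change 2.45, edgeR adjusted p = 3.03e-06). Mylpf, the fast regulatory light chain, was at 0.434 to 1.08 CPM in controls and 1.18 to 1.39 CPM in cKO and did not pass the adjusted p. In cKO Mybpc2 was at 113 to 154 CPM, in the range of Tnnt1 and above these fast myosins and Mylpf. These CPM are not scaled by exon length, so they do not rank the genes by number of transcripts. The part of skeletal muscle RNA in the Mybpc2 values was not tested.

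Cmya5 (ENSMUSG00000047419, chromosome 13, 93040713 to 93144724, minus strand) encodes myospryn, which anchors protein kinase A and ties the junctional sarcoplasmic reticulum to the Z-disc. Controls held 207, 246, 206, 238 and 230 CPM, and cKO libraries held 91.8, 85.8, 100 and 79.0 CPM. The groups were far apart and each was tight. The mean went from 226 ± 18.1 CPM (SD, n = 5) to 89.2 ± 8.90 CPM (n = 4), a log2 fold change of -1.34 (SE 0.08, 95% interval -1.52 to -1.16, edgeR adjusted p = 9.7e-07), or 0.395 of the control level. It was -1.29 in the Rps3a3-low libraries and -1.51 in the Rps3a3-high libraries, and it was called in all 21 alternative analyses, the only member for which this held. Of its transcript's stretches of 75 bases, the read length, 18.9% also lie in antisense genes not analysed here, and the strand setting of the counting is not given in the sources used here.

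The Xin repeat genes Xirp1 and Xirp2 differed from each other. Xirp2 (ENSMUSG00000027022, chromosome 2, 67446002 to 67526614, plus strand) held 105, 96.3, 124, 152 and 170 CPM in controls and 164, 212, 209 and 338 CPM in cKO. Control replicate 5 lay above cKO replicate 1, so the groups overlapped, and cKO replicate 4 was the highest. The mean was 129 ± 31.3 CPM (SD, n = 5) in controls and 231 ± 74.7 CPM (n = 4) in cKO, a log2 fold change of 0.83 (SE 0.24, 95% interval 0.30 to 1.37, edgeR adjusted p = 0.0442). This call was near the threshold: it was lost in 7 of the 9 fits that left out 1 library (control replicates 1 to 4 and cKO replicates 2 to 4), where the adjusted p reached 0.099, and with the level of Xist, which differs between the sexes, as a covariate (0.82, edgeR adjusted p = 0.0748). Over the fits without 1 library the change ranged from 0.59 without cKO replicate 4 to 0.97 without cKO replicate 1.

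Within each library set, by contrast, every cKO library held more Xirp2 than every control. Rps3a3-low controls held 105 and 96.3 CPM against 164, 212 and 209 CPM in cKO, and Rps3a3-high controls held 124, 152 and 170 CPM against 338 CPM in the only cKO library of that set. The log2 fold change was 0.96 and 1.18 in the 2 sets. With the library set as a term in the fit the genotype difference was 1.05 (edgeR adjusted p = 9e-05), and the Rps3a3-high libraries were themselves higher than the Rps3a3-low libraries by 0.65 (SE 0.11, adjusted p = 0.0114). Xirp2 was the only member that passed this comparison of library sets, which the choice of members did not use, against 4.81% of all tested genes, and it did not pass without control replicate 2 or without cKO replicate 4. By edgeR's test of whether the genotype difference itself differed between the sets, 0 of the 8 tested members and 0.0131% of all tested genes passed the adjusted p, and 2 members, Mybpc3 and Igfn1, had an unadjusted p under 0.05.

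**Figure D3:**
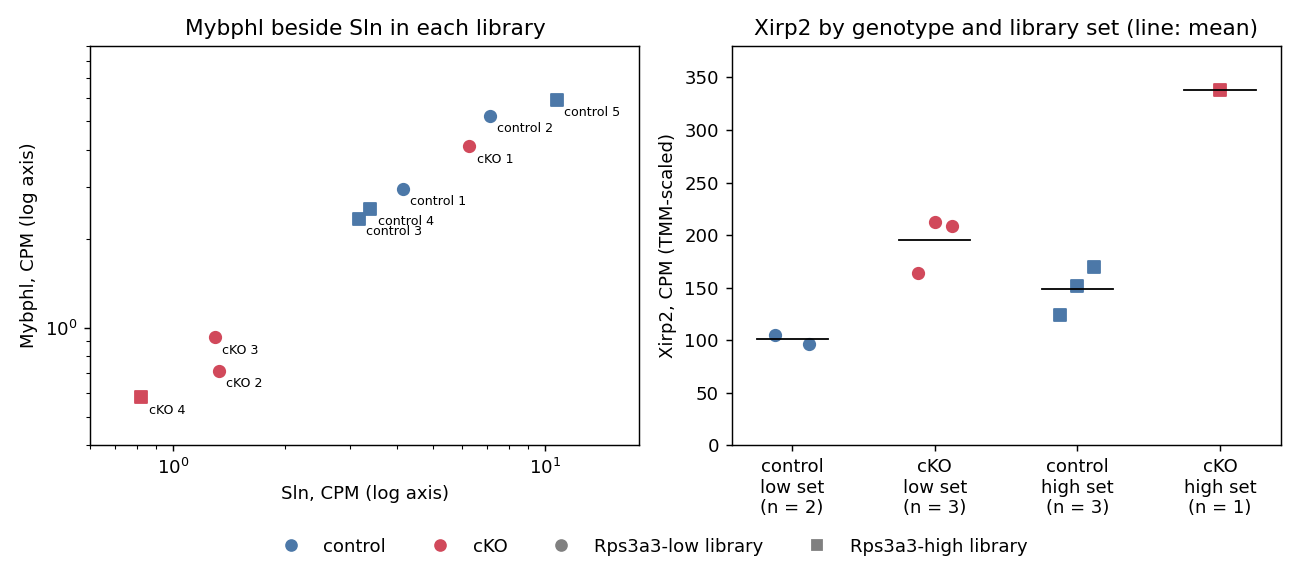
Left, Mybphl against Sln in each library, in CPM on log axes. Right, Xirp2 in CPM by genotype and library set, a point per library with a line at the mean. cKO replicate 1 (4.11 CPM of Mybphl) lies among the controls and the other cKO libraries at 0.581 to 0.927 CPM, while Xirp2 in cKO lies above the controls within each set.

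Xirp1 (ENSMUSG00000079243, chromosome 9, 120013755 to 120023598, minus strand) held 292, 321, 270, 273 and 293 CPM in controls and 277, 331, 283 and 301 CPM in cKO. The 2 groups lay over each other. The log2 fold change was 0.04 (SE 0.07, 95% interval -0.12 to 0.20, edgeR adjusted p = 0.758), with -0.05 in the Rps3a3-low libraries and 0.11 in the Rps3a3-high libraries. Per kilobase, Xirp2 was 0.220 ± 0.0595 of Xirp1 (SD, n = 5) in controls against 0.377 ± 0.117 (n = 4) in cKO. The lowest cKO ratio, 0.288, lay just above the highest control ratio, 0.283, so the ratio separated the genotypes where the level of Xirp2 did not.

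Nrap (ENSMUSG00000049134, chromosome 19, 56320035 to 56390037, minus strand) held 476, 356, 374, 408 and 433 CPM in controls and 440, 510, 429 and 526 CPM in cKO. The cKO mean was the higher, but control replicate 1 lay above both of the lower cKO libraries. The log2 fold change was 0.22 (SE 0.09, 95% interval 0.01 to 0.42, edgeR adjusted p = 0.143) and did not pass. The Rps3a3-low libraries gave 0.14 and the Rps3a3-high libraries 0.38.

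Igfn1 (ENSMUSG00000051985, chromosome 1, 135953578 to 136006342, minus strand) was the member with the largest fitted fold and the fewest counts among those tested. Controls had 0, 0, 4, 4 and 11 counts, and cKO libraries had 54, 22, 25 and 11 counts. As CPM these are 0, 0, 0.111, 0.126 and 0.356 in controls and 1.68, 0.583, 0.724 and 0.266 in cKO. Control replicate 5 lay above cKO replicate 4, so the groups overlapped. The log2 fold change was 2.76 (SE 0.78, 95% interval 1.04 to 4.48, edgeR adjusted p = 0.034), and the call was lost in 7 of the 8 fits without 1 library in which the gene could be tested, all but that without cKO replicate 4. A fit that included the library set also lost it, at 2.75 with an edgeR adjusted p of 0.0725. In the Rps3a3-low set both controls were at 0, which allows up to 3 counts a library or 0.0888 CPM. The pooled cKO level of 0.985 CPM was 11.1-fold above that bound, a figure that leaves out the spread of the cKO libraries, 0.583 to 1.68 CPM. There edgeR's adjusted p was 0.0042 in the fit that shared the spread and 0.018 in these libraries alone. With both controls at 0, Igfn1 passed the count filter in these libraries only through cKO. These p-values are therefore not independent support for the call. In the Rps3a3-high set the change was 0.45 and did not pass, with the single cKO library inside the control range.

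Mybphl (ENSMUSG00000068745, chromosome 3, 108364911 to 108380057, plus strand) is known from the atrium and the ventricular conduction system. Controls held 2.95, 5.21, 2.33, 2.52 and 5.92 CPM, and cKO libraries held 4.11, 0.716, 0.927 and 0.581 CPM. The last 3 cKO libraries were below every control, and cKO replicate 1 lay among the controls. The log2 fold change was -1.27 (SE 0.61, 95% interval -2.64 to 0.09, edgeR adjusted p = 0.196). Without cKO replicate 1 it was -2.35 (adjusted p = 0.00182), the only one of 21 alternatives in which Mybphl passed. The Rps3a3-low libraries, which hold cKO replicate 1, gave -1.11 and the Rps3a3-high libraries gave -2.61, and neither passed.

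Sln, which encodes the calcium pump inhibitor sarcolipin of the atrium, put the 9 libraries in the same order as Mybphl, other than cKO replicates 2 and 3, which changed places. Sln held 4.15, 7.12, 3.16, 3.4 and 10.8 CPM in controls and 6.28, 1.33, 1.30 and 0.823 CPM in cKO, so that cKO replicate 1 again lay among the controls. The ratio of Mybphl to Sln was 0.550 to 0.741 in controls and 0.540 to 0.711 in cKO, over all 9 libraries. Of the 9 atrial markers, 3 (Sln and the atrial light chains Myl7 and Myl4) put the 5 controls in the order of Mybphl, and the other 6 did not. The channel gene Kcnj5, for example, was lowest in control replicate 1, at 102 CPM, and highest in control replicate 3, at 127 CPM. In 6 of the 9 (Sln, Myl7, Myl4, Stard10, Nr2f2 and Dkk3) cKO replicate 1 was the highest cKO library, and in Nr2f1, Kcnj5 and Bmp10 it was not. The difference between the genotypes varied too. Myl7 was 83.6 to 117 CPM in cKO against 29.1 to 65.9 CPM in controls. Myl4 overlapped, at 35.8 to 66.3 CPM against 28.3 to 60.6 CPM, and Stard10 was lower, at 2 to 4.11 CPM against 5.73 to 10.3 CPM. Summed atrial markers were 271 to 365 CPM in controls and 301 to 381 CPM in cKO, and Bmp10 was at or under 0.194 CPM in every library. Summed conduction system markers were 72.9 to 87.0 CPM and 60.9 to 68.9 CPM, with Hcn4, the pacemaker channel, at 1.91 to 5.14 CPM in controls and 0.315 to 0.622 CPM in cKO. Whether atrial or conduction tissue has a part in the Mybphl values was not tested.

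Mybph (ENSMUSG00000042451, chromosome 1, 134193448 to 134201232, plus strand), a skeletal and conduction fibre protein, had 14 counts in cKO replicate 1 and at most 3 counts in any other library. It was too low to test. Of its transcript's 75-base stretches 40.7% lie antisense to Adora1, which had 269 to 623 counts, and no member shared such a stretch with another gene on its own strand.

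**Figure D4:**
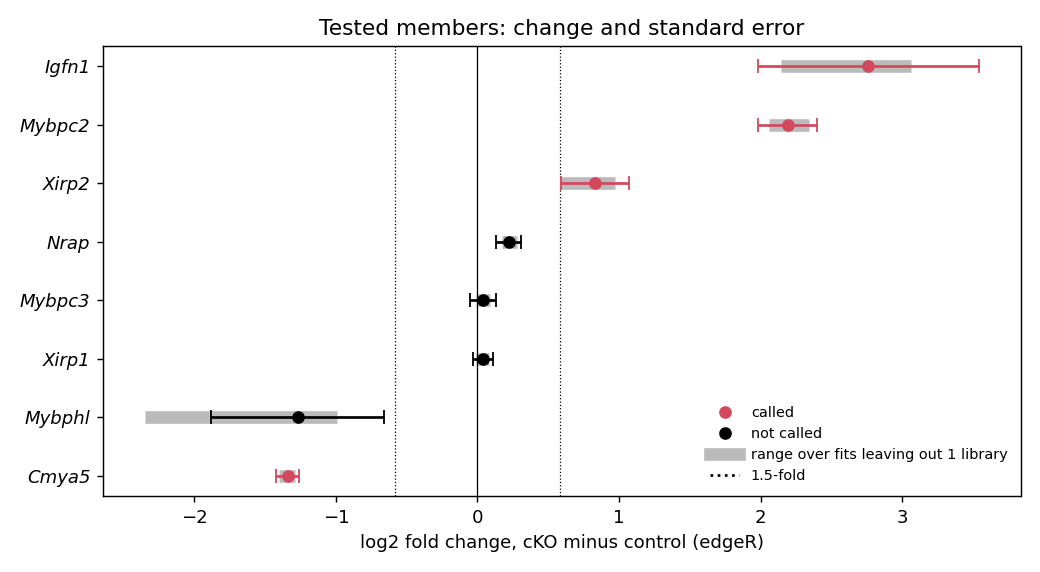
Log2 fold change, cKO minus control, of the 8 tested members with its standard error (points and bars) over the range from fits that each left out 1 library (grey). Dotted lines mark a 1.5-fold change. Mybpc2 at 2.19 and Cmya5 at -1.34 have narrow ranges, while Mybphl runs from -2.35 to -0.99.

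The stretch before the transcription start was read in RefSeq for 9 of the 10 members on build GRCm38.p6, where Xirp1 was not matched. The 300-base windows, 250 bases before to 50 after the start, were searched on both strands for the TEAD core GGAATG, the E-box CANNTG, the TATA box TATAAA, the MEF2 consensus and the CArG box. The 150 bases before the start are printed for the members with the clearest differences and for Mybpc3, the paralog of Mybpc2 with no call, with MEF2 and TEAD matches in capitals.
Mybpc2, chr7:44524670-44524819, minus strand: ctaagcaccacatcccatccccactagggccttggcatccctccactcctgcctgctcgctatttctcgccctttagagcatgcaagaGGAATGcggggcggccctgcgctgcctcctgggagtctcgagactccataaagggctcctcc
Mybpc3, chr2:91117994-91118143, plus strand: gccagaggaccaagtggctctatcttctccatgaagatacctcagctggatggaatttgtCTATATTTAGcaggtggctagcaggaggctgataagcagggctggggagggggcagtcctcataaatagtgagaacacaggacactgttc
Cmya5, chr13:93144725-93144874, minus strand: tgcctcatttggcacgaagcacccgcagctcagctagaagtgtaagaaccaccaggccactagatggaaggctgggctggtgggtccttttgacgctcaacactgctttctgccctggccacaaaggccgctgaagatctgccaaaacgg
Xirp2, chr2:67445852-67446001, plus strand: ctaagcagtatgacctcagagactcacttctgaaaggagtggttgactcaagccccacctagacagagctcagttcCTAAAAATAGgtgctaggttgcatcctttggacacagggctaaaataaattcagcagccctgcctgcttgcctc

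The MEF2 consensus, the site of a muscle transcription factor family, was matched in Xirp2 from -74 to -65 and in Mybpc3 from -90 to -81, counted from the start, and in 0.557% of all 32851 promoters. So it stood before a gene that was called and before a gene that was not. The TEAD core was matched in Mybpc2 from -62 to -57 and in Mybph from -73 to -68, and in 14.7% of all promoters. Cmya5 held neither. The E-box was in all 9 members' windows and in 72.3% of all promoters, the TATA box was in Mybph and in 13.6%, and the CArG box was in no member and in 1.63%. These are matches of letters, with no measure of binding.

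To place the members among their neighbours in the sarcomere, 72 other genes of the Z-disc, M-band, thin-filament ends and costamere were listed, of which 70 were tested. Of these, 5 were called higher and 5 lower, or 7.14% in each direction, beside 4.01% and 2.72% of all tested genes. The adjusted p was passed by 18 higher and 13 lower, together 44.3% beside 16.3% of all tested genes, and the median log2 fold change was 0.02 beside 0.01. In the Z-disc list of 25 tested genes, Myoz1 (0.87), Ankrd23 (0.84) and Pdlim7 (0.79) were called higher and Myot, or myotilin, (-1.46) and Nebl, or nebulette, (-0.63) lower, all as log2 fold changes. In the M-band and titin list of 12 tested genes, Trim54 (1.45), a ubiquitin ligase, was called higher and the myosin crosslinker Myom3 (-1.40) and Obsl1 (-0.61) lower. In the thin-filament list of 13 tested genes, Klhl40 (1.28) was called higher and Tmod4 (-2.42), a skeletal tropomodulin, lower. Some called genes were low, by mean CPM in controls and cKO. Myoz1 had 1.68 and 3.06, Myot 5.1 and 1.84, Myom3 2.46 and 0.927, and Tmod4 5.7 and 1.06. Trim54 and Klhl40 had 9.87 and 9.34 CPM in controls, and Pdlim7, Obsl1, Ankrd23 and Nebl had 50.1, 142, 186 and 473. The paralogs Myoz2, Myom1, Myom2 and Tmod1, at 524, 1230, 1410 and 468 CPM in controls, were not called. Myom2 and Tmod1 did pass the adjusted p, lower in cKO.

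Of the 20 tested genes of the costamere and adhesion list 0 were called by edgeR or by DESeq2, and the changes ran from -0.39 to 0.45. There 7 genes had an unadjusted p under 0.05, and 2 passed the adjusted p in each direction. Cmya5 at -1.34 and Xirp2 at 0.83 lay outside that range. Of 18 known binding partners of the members, 0 were called by edgeR or by DESeq2. At an unadjusted p under 0.05 there were 6, and 3, or 16.7%, passed the adjusted p of edgeR's test, a share near the 16.3% of all tested genes. These 3 were higher in cKO: Klhl41 (0.32), Des (0.42), the muscle intermediate filament desmin, and Flnc (0.52), the filamin that binds Xin repeat proteins. In all 3 the groups overlapped, with Flnc at 271 to 349 CPM in controls and 333 to 515 CPM in cKO, Des at 721 to 906 and 846 to 1230 CPM, and Klhl41 at 69.3 to 93.4 and 86.4 to 104 CPM.

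**Figure D5:**
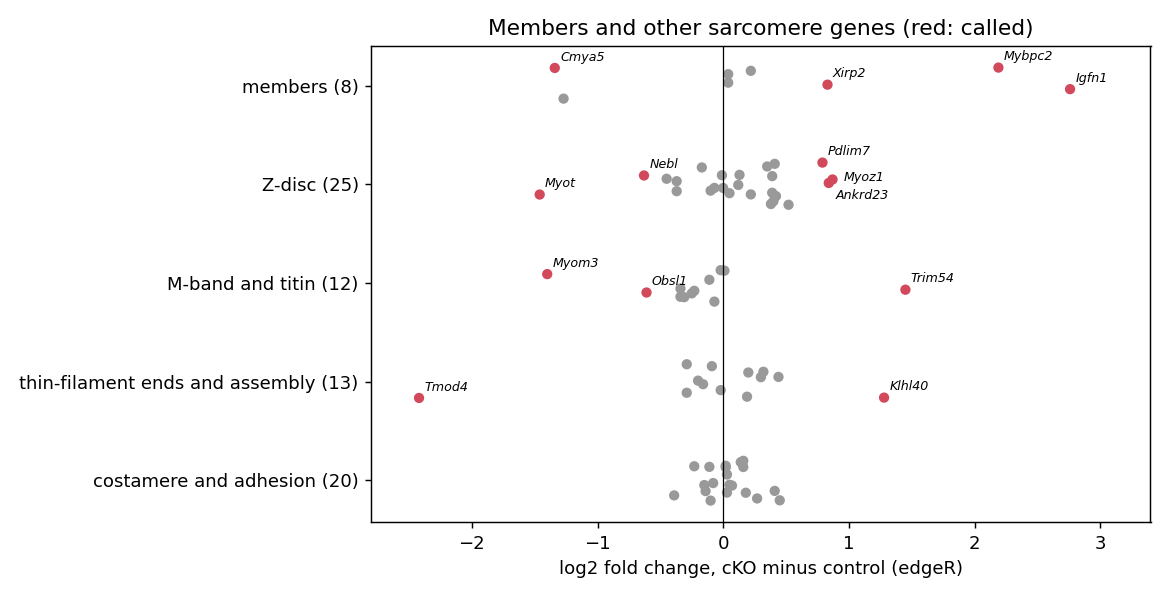
Log2 fold change, cKO minus control, of the 8 tested members and of the tested genes of 4 lists of sarcomere and adhesion genes, a point per gene with genes called at an adjusted p under 0.05 and over 1.5-fold in red and named. Points are spread up and down only to keep them apart. The costamere list lies between -0.39 and 0.45 with no call, and the other lists hold calls in both directions.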

How the data were processed

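Ventricular RNA of 5 control and 4 cKO mice was sequenced by the authors as stranded poly(A) libraries with single-end reads of 75 bases, mapped to mm10. The submitters' processing notes name STAR 2.4.2a and HTSeq 0.6.1. The authors deposited raw read counts per Ensembl gene, with no normalization, in 1 table of 9 columns, each matched to a library by its title. The annotation and strand setting of the counting are not given in the sources used here. All 5 libraries labelled as controls were used, as a legend of the study counts them, although its methods count fewer. Symbols, coordinates and exon lengths came from GENCODE M21 on GRCm38. No label says that libraries came from separate litters, so p-values measure the spread between these libraries.

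In R 4.3.3, genes were kept by filterByExpr (minimum count 10), scaled by TMM and tested with the two-sided quasi-likelihood F test of edgeR 4.0.16, with genotype alone. P-values were adjusted by Benjamini-Hochberg over 15318 genes, and called genes had an adjusted p below 0.05 with more than a 1.5-fold change, the thresholds of the study, whose own test was DESeq2. CPM are counts over the TMM-scaled total. Standard errors were the log2 fold change over the root of its F statistic. The test was tried on simulated counts first. Alternatives were DESeq2 1.42.0, other scalings and filters, the replicate number as a block, the library set, Xist as a covariate and leaving out each library.

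Members and lists were chosen with earlier results of these data known. All members were named, with up to 3 called genes in each direction per list and the 3 genes most like the member with the largest change at a mean of at least 5 CPM. Same-numbered libraries of the 2 genotypes showed no evident pairing (correlations of their deviations 0.01 to 0.23), and the labels do not tie cKO animals to their littermates. Intervals and the floor of 3 counts for a library at 0 cover counting error only where they rest on counts. Protein sequences were not used here.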

Additional observations from a re-analysis of the deposited data

Results flagged for a closer look

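In 3 of the 20 sets of values formed by the 10 members and 2 genotypes, a single library lay far from the rest of its group by Dixon's criterion, which chance meets in about 1 in 20 groups. Mybphl in cKO replicate 1 was at 4.11 CPM, against 0.581 to 0.927 CPM in the other cKO libraries, and Sln was at 6.28 CPM there against 0.823 to 1.33 CPM. Mybph in cKO replicate 1 was at 0.435 CPM, or 14 counts, against at most 3 counts in the other libraries. Mybpc1 in cKO replicate 3 was at 0.406 CPM, and no library held more than 14 counts of it. The cause of these values was not tested.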

How the results depend on the processing

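The number of members called, 4, and the number past the adjusted p, also 4, both fell to 2 (Mybpc2 and Cmya5) with no filter on low counts, and ranged from 2 to 4 over the fits without 1 library. They were 2 without control replicates 1, 2, 3 or 4 or cKO replicates 2 or 3, 3 without control replicate 5 or cKO replicate 4, and 4 without cKO replicate 1, where Mybphl stood in place of Igfn1. The member that differed between library sets, Xirp2, gave a count of 0 to 1 over the fits without 1 library. Of the 70 other structural genes, 10 were called, and 6 with the Rps3a3-low libraries alone and within that set. Over all genes 1030 were called, and 620 with the Rps3a3-low libraries alone.

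The labels do not say what the replicate numbers stand for, and same-numbered libraries gave correlations of 0.01 to 0.23, so no pairing was evident. With the replicate block 3 members (Mybpc2, Cmya5, Xirp2) and 879 genes were called, against 3 and 933 in the same 8 libraries without it, which is the fit without control replicate 5. Mybpc3, at 0.04 (log2), was 0.00 without control replicate 5, -0.01 with the library set as a term, -0.13 with the Rps3a3-low libraries alone and -0.14 within that set, and ranged from -0.01 to 0.09 over the fits without 1 library. Xirp1, at 0.04, was -0.05 with the Rps3a3-low libraries alone and within that set and ranged from -0.01 to 0.08. Mybpc2 (2.06 to 2.34) was called in 20 of 21 alternatives and Cmya5 (-1.51 to -1.29) in 21 of 21. The change of Xirp2 passed in 12 of 21 and that of Igfn1 in 8 of 18 in which it was tested. Of all calls, 59.1 to 61.7% were higher over the 4 scalings. The interaction of genotype and library set was not run with DESeq2 and could not be estimated without cKO replicate 4. Low counts limit Igfn1, Mybpc1 and Mybph.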
